A study of Mus musculus with 3 samples.

Results

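Troponins and tropomyosins are the regulatory proteins of the thin filament, the actin strand of the muscle sarcomere. The 10 genes described here are the troponin T genes Tnnt1, Tnnt2 and Tnnt3, the troponin I genes Tnni1, Tnni2 and Tnni3, the troponin C genes Tnnc1 and Tnnc2, and the tropomyosin genes Tpm1 and Tpm2. They were chosen by symbol, with earlier results of these data known, and every probe whose RefSeq transcript belongs to a listed symbol was taken, which gave 17 probes. They are 10 of 21153 gene symbols on the array, and all 10 are among the 14705 genes tested.

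In striated muscle, tropomyosin lies along actin and covers the sites at which myosin binds. Troponin T ties the troponin complex to tropomyosin, troponin I holds the filament in the blocked state, and troponin C binds calcium and releases that block. Troponin T and troponin I are each encoded by separate genes for heart, slow skeletal and fast skeletal muscle, whereas heart and slow skeletal muscle share a troponin C gene. The embryonic heart also uses genes named for slow skeletal muscle, above all Tnni1. Tpm1 and Tpm2 each give several proteins through alternative exons, among them forms for striated, smooth and non-muscle cells.

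RNA was compared between 2 kinds of embryoid bodies, which are aggregates of differentiating mouse embryonic stem cells. One RNA came from Hopx-/- embryoid bodies treated with 12.5 µM XAV939, a Wnt inhibitor that acts on tankyrase, and the other from Hopx+/- embryoid bodies, for which the labels name no inhibitor. Both were taken at day 8 of cardiac differentiation, in which hanging drops were followed by culture in a serum-free medium with VEGF, bFGF, FGF10 and ascorbic acid. Hopx encodes a homeodomain protein of the developing heart that does not itself bind DNA. The stem cell lines were derived from E3.5 blastocysts on STO feeder cells and kept on mouse embryonic fibroblasts, and the sources used here do not give the number of lines. Genotype and inhibitor change together and all controls carry 1 null allele of Hopx, so an effect of the genotype and an effect of the inhibitor cannot be told apart.

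Both RNAs were hybridised to each of 3 two-colour Agilent arrays, labelled as biological replicates, so every value below is a log2 ratio of the Hopx-/- plus XAV939 RNA (called null) over the Hopx+/- RNA (called het). The p-values measure only the spread between these 3 arrays, and the number of arrays limits the precision. Limma's moderated test also borrows variance from all tested genes, which supply 6.66 of its 8.66 degrees of freedom. The ratios of Cy5 over Cy3 correlated at 0.965 between replicates 1 and 2 over the tested probes, but at -0.878 and -0.908 between replicate 3 and the other two, although by its labels each array carried null RNA in Cy5. The ratio of replicate 3 was turned, as it is in the authors' own processed values. The direction is therefore likely rather than settled: it rests on the dye labels of replicates 1 and 2, on the sign of the authors' values and on Hopx, and if it were reversed every sign below would turn. With replicate 3 left as labelled, limma called 0 genes, with 40 at an unadjusted p below 0.05. Hopx itself was lower in null on all 3 arrays (-2.65, -2.75 and -2.73; mean -2.71 ± 0.05, SD, n = 3), and whether its probes lie in a deleted part was not tested.

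Of the 10 genes, 6 were lower in null, 3 were higher and Tnni2 was not called, by limma's moderated test at an adjusted p of 0.05. The genes that fell were Tnnc1, Tnni1, Tpm1, Tnni3, Tnnt3 and Tnnt2, and those that rose were Tnnc2, Tnnt1 and Tpm2. Over all 14705 genes, 33.0% were called lower and 31.5% higher, 64.5% in all. Changes were thus common on these arrays, and a call alone sets no member apart. The share of all genes whose het and null signals do not overlap was not computed. Lack of overlap, given below for single members, therefore sets none of them apart either. After median centring in place of loess the calls over all genes shifted to 3035 higher and 2019 lower, from 4635 and 4853, while the counts among the 10 genes stayed at 3 and 6. A fall to a log2 ratio of -1 or below was met by 3 of the 10 genes, Tnnc1, Tnni1 and Tpm1, against 9.55% of all genes. Tnni3 lay just outside that limit, at -0.999. The count depends on the arrays and settings. It was 6 without replicate 3, which added Tnni3, Tnnt3 and Tnnt2, and 5 with the scanner software's own log ratio. Averaged over probes it was 2, without Tpm1, and with replicate 3 left as labelled it was 0. The median of the 10 ratios was -0.97, against -0.01 for all genes tested.

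**Figure D1:**
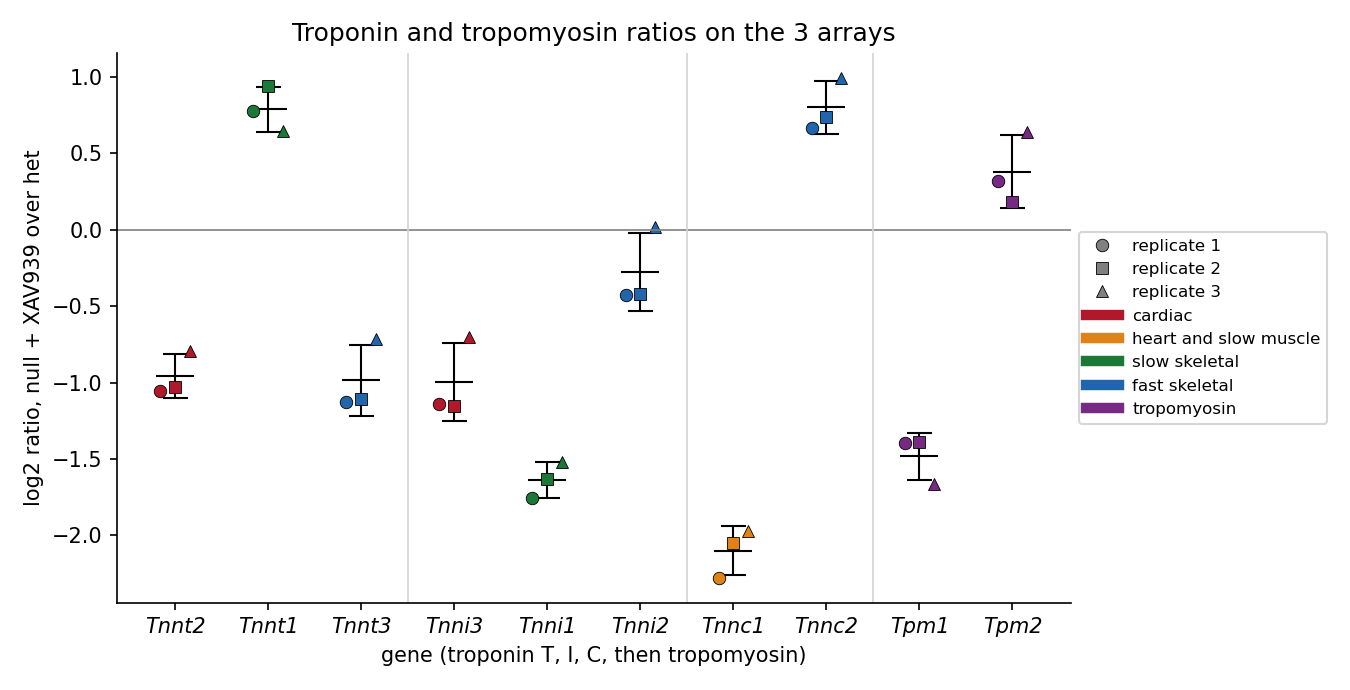
Log2 ratio of null plus XAV939 over het (vertical axis) for the 10 genes (horizontal axis, by subunit). Points are the 3 replicates, the wide bar is their mean, the error bars are 1 SD, and colour gives the muscle type for which the gene is named. Tnnc1 lies lowest at -2.10 and Tnnc2 highest at 0.80, and Tnni2 is the gene whose replicates lie on both sides of 0.

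Troponin C, the calcium sensor, showed the widest split between paired genes. Tnnc1, which encodes the troponin C of heart and slow skeletal muscle, had normalised signals of 1724, 1329 and 1753 in het RNA and 356, 321 and 448 in null RNA (arbitrary units, replicates 1 to 3). Every null value was below every het value. Its log2 ratios were -2.28, -2.05 and -1.97, a mean of -2.10 ± 0.16 (SD, n = 3), or 4.28-fold lower (adjusted p = 8.14e-07, limma), and 1.65% of the tested genes had a lower ratio.

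Tnnc2, which encodes the troponin C of fast skeletal muscle, moved the other way. Its signals were 164, 155 and 150 in het RNA and 260, 259 and 298 in null RNA, again with no overlap. The log2 ratios of 0.67, 0.74 and 0.99 averaged 0.80 ± 0.17 (n = 3), or 1.74-fold higher (adjusted p = 0.000205, limma). This call was lost when local backgrounds marked by the scanner software as outliers were kept (log2 ratio 0.47, adjusted p = 0.128, limma), and the ratio was 1.20 with the scanner software's own log ratio. Within each array the Tnnc2 ratio exceeded the Tnnc1 ratio by 2.94, 2.79 and 2.96, a mean difference of 2.90 ± 0.09 on the log2 scale, or 7.46-fold.

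The upstream sequences of these genes are shown because the paired genes moved in opposite directions. They were taken from RefSeq (GRCm38.p6), run 5′ to 3′ on the gene's strand, and end at the base before the first annotated start. Capitals mark letters that match a motif of muscle promoters on either strand: AGATAA for GATA factors, CATTCC (MCAT) for TEAD factors, or CANNTG (the E-box) for basic helix-loop-helix factors. The stretches lie at chr14:31208062-31208311 (Tnnc1, + strand), chr2:164779735-164779984 (Tnnc2, - strand), chr1:135836084-135836314 (Tnnt2, + strand) and chr7:4515976-4516225 (Tnnt1, - strand).
Tnnc1: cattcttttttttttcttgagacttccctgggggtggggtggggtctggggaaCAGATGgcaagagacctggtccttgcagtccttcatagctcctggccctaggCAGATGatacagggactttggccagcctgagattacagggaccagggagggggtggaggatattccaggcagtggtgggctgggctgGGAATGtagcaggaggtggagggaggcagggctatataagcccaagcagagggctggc
Tnnc2: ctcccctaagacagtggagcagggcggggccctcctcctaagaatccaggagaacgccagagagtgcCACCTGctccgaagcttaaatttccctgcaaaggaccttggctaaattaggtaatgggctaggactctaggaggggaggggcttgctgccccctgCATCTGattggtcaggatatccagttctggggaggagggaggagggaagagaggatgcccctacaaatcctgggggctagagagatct
Tnnt2: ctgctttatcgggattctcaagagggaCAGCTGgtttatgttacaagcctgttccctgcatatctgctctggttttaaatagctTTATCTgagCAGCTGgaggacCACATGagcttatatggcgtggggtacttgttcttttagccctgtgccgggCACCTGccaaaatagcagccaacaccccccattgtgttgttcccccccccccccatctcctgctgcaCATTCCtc
Tnnt1: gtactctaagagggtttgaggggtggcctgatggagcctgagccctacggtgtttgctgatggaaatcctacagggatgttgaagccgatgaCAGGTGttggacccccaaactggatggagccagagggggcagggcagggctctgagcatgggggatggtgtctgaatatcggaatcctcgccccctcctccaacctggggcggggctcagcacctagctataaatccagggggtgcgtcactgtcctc

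The Tnnc1 stretch held 1 MCAT match and 2 E-box matches, and the Tnnc2 stretch held 2 E-box matches and no MCAT match. The Tnnt2 stretch held 1 GATA match, 1 MCAT match and 4 E-box matches, and the Tnnt1 stretch held 1 E-box match. No 2 matches overlapped in these stretches. RefSeq's promoter table (250 bases before to 50 after a start) covered 8 of the 10 genes in 10 windows, all but Tnnt3 and Tnni2. MCAT letters were in 3 of these windows (Tnnc1, Tnnt2 and Tpm1) and in 14.7% of all 32851 windows, and GATA letters were in 1 (Tnnt2) and in 11.2% of all. E-box letters were in 10 of 10 windows and in 72.3% of all. The CArG box (1.63% of all windows) and the MEF2 site (3.19%) were in 0 of the 10. These are matches of letters only, and binding was not measured.

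Among the troponin T genes, which anchor the complex to tropomyosin, Tnnt2 and Tnnt3 fell and Tnnt1 rose. Tnnt2, the cardiac gene and a standard marker of cardiomyocytes, had signals of 5457, 4824 and 4404 in het RNA and 2630, 2368 and 2544 in null RNA. The groups did not overlap. Its log2 ratios of -1.05, -1.03 and -0.79 averaged -0.96 ± 0.14 (n = 3), or 1.94-fold lower (adjusted p = 5.84e-05, limma).

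Tnnt3, the fast skeletal troponin T gene, had signals of 372, 277 and 275 in het RNA and 170, 129 and 167 in null RNA. Every null value was below every het value. Its ratios of -1.13, -1.11 and -0.72 averaged -0.98 ± 0.23 (n = 3; adjusted p = 9.31e-05, limma), and a second probe, designed to another transcript, averaged -0.9996 ± 0.300. The difference between the Tnnt3 and Tnnt2 ratios was -0.08, -0.08 and 0.08 on the 3 arrays, a mean of -0.03 ± 0.09 on the log2 scale (exact sign-flip permutation test, two-sided, p = 0.75). Its sign turned to 0.38 when local backgrounds marked by the scanner software as outliers were kept, where the Tnnt3 ratio was -0.47, and to 0.16 in the authors' processed values. With the scanner software's own log ratio it was -0.56, with Tnnt3 at -1.47 and Tnnt2 at -0.90.

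Tnnt1, the slow skeletal troponin T gene, had signals of 1087, 1101 and 1361 in het RNA and 1864, 2116 and 2134 in null RNA. Every null value exceeded every het value. Its ratios of 0.78, 0.94 and 0.65 averaged 0.79 ± 0.15 (n = 3), or 1.73-fold higher (adjusted p = 0.000191, limma), a ratio higher than that of 87.8% of the tested genes. A second, dimmer Tnnt1 probe for the same transcript gave 0.11, 0.39 and 0.43, a mean of 0.31 ± 0.17 (adjusted p over all probes = 0.0329, limma). The probes thus shared the direction but not the size. In the authors' processed values the dimmer probe was at -0.101, 0.091 and 0.407, below 0 on replicate 1. Tnnt1 exceeded Tnnt2 by 1.83, 1.97 and 1.44 on the log2 scale, a mean difference of 1.75 ± 0.27. Tnnt3 minus Tnnt1 was -1.77 ± 0.36.

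Troponin I, the inhibitory subunit, was lower for the gene of the embryonic heart and for that of the mature heart. Tnni1, the slow skeletal gene that also supplies most troponin I of the embryonic heart, had signals of 6103, 6188 and 5960 in het RNA and 1810, 1994 and 2080 in null RNA. These groups lay far apart and each varied little between replicates. Its ratios of -1.75, -1.63 and -1.52 averaged -1.64 ± 0.12 (n = 3), or 3.11-fold lower (adjusted p = 2.36e-06, limma).

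Tnni3, the cardiac gene that replaces Tnni1 as the heart matures, had signals of 301, 180 and 289 in het RNA and 137, 80.7 and 177 in null RNA. Replicate 2 was the lowest in each RNA, and every null value was below every het value. The ratios of -1.14, -1.15 and -0.70 averaged -0.999 ± 0.255 (n = 3), or 2.00-fold lower (adjusted p = 0.000102, limma). With the marked local backgrounds kept the ratio was -0.41 and no longer passed (adjusted p = 0.0691, limma). With the scanner software's own log ratio it was -1.71.

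Tnni2, the fast skeletal troponin I gene, was the member not called. Its signals were 423, 464 and 396 in het RNA and 315, 347 and 401 in null RNA, so the groups overlapped through replicate 3. Its ratios were -0.43, -0.42 and 0.02, a mean of -0.28 ± 0.25 (n = 3; adjusted p = 0.0702, limma). Without replicate 3 the mean was -0.42 and passed (adjusted p = 0.00167, limma). The 2 arrays then left carry null RNA in the same dye, so this fit cannot tell a change from a dye effect. Without replicate 1 or 2 the mean was -0.201 or -0.205 and did not pass (adjusted p = 0.33 and 0.355, limma). A dye term (-0.20, adjusted p = 0.0316) or the slide as a random block (-0.23, adjusted p = 0.0124) also brought Tnni2 past the threshold in limma. As turned, replicate 3 is the only array with null RNA in Cy3, so the dye term takes up its departure from the other arrays. The block fit rests on a correlation of -0.70 from 3 arrays. Neither fit therefore adds evidence that Tnni2 changed.

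Tnni2 and Tnni3 kept a nearly fixed distance. Tnni2 exceeded Tnni3 by 0.71, 0.74 and 0.72 on the log2 scale, a mean difference of 0.72 ± 0.01, although their own ratios varied between arrays by 0.254 and 0.255 (SD). In the 6 troponin genes with a mean below 0, replicate 3 gave the highest ratio, while for Tpm1 it gave the lowest. As turned, it is the array with null RNA in Cy3, so the array and the dye cannot be told apart. Tnni1 lay below Tnni3 by a mean difference of -0.64 ± 0.17 (-0.62, -0.48 and -0.81), but this turned to 0.11 with the scanner software's own log ratio. Tnni2 minus Tnni1 was 1.36 ± 0.16. The distance between Tnni2 and Tnni3 itself was 0.29 with marked backgrounds kept and 1.44 with that log ratio.

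**Figure D2:**
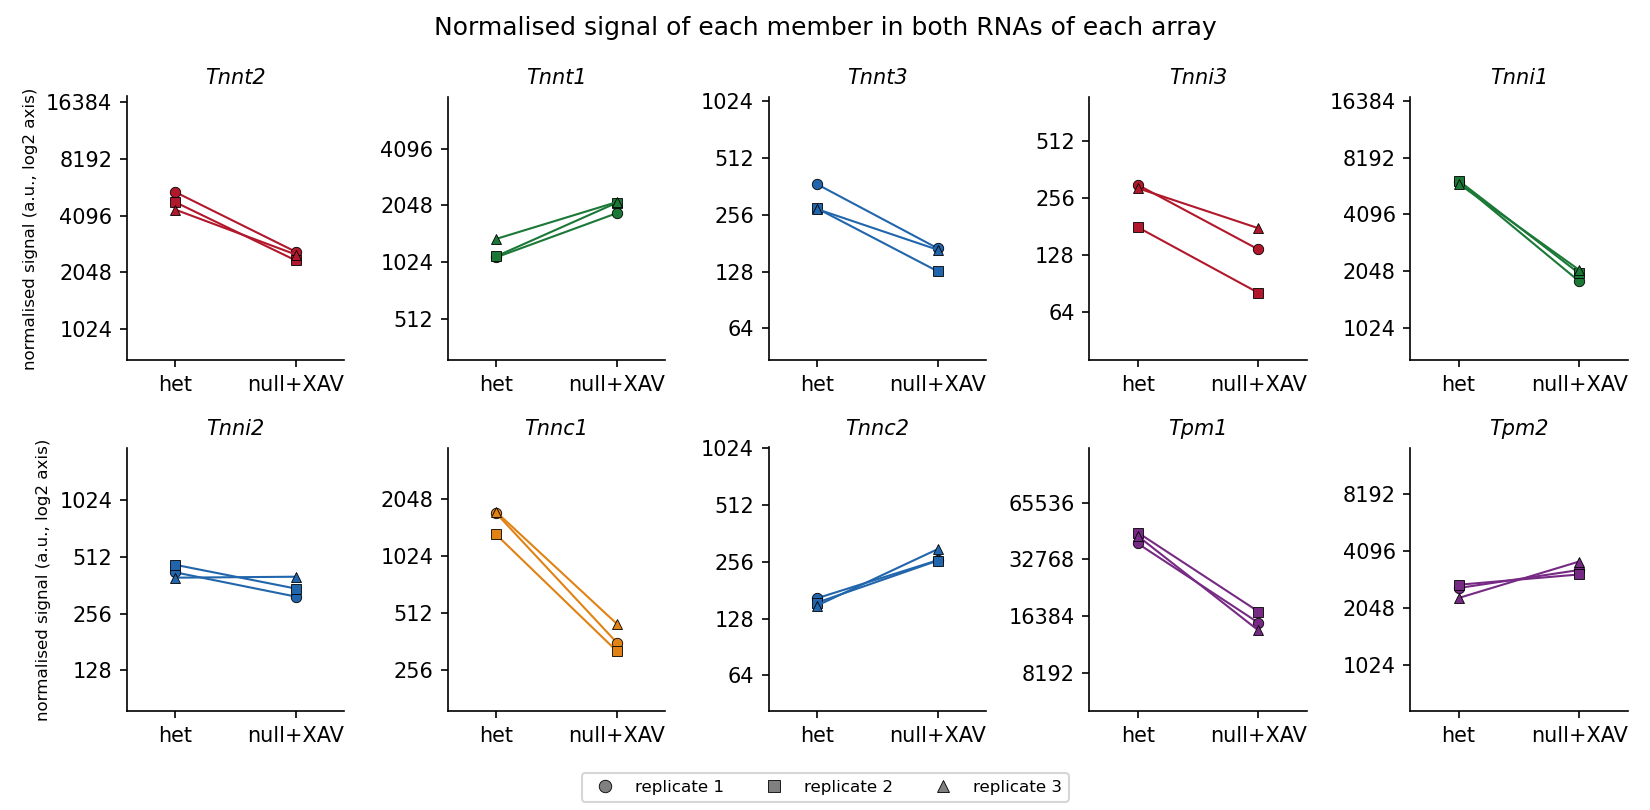
Normalised signal in arbitrary units (vertical axis, log2 scale, each panel spanning the same fold range) in het and null plus XAV939 RNA (horizontal axis) for each gene. Lines join the RNAs of 1 array, and levels are not comparable between panels, since each gene has its own probe. The lines of Tnnc1 fall from between 1329 and 1753 to between 321 and 448, and those of Tnni2 overlap.

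Of the tropomyosins, Tpm1 fell and Tpm2 rose. Tpm1, which encodes the main tropomyosin of heart muscle, had signals of 39775, 45462 and 43596 in het RNA and 15131, 17339 and 13776 in null RNA at its brightest probe. The groups did not overlap. Its ratios of -1.39, -1.39 and -1.66 averaged -1.48 ± 0.16 (n = 3), or 2.79-fold lower (adjusted p = 5.01e-06, limma).

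The 5 probes of Tpm1 all fell but not equally. The 2 probes annotated to NM_001164248 gave -1.48 ± 0.16 and -1.61 ± 0.20. The probes annotated to NM_001164255, NM_001164251 and NM_001164249 gave -0.65 ± 0.13, -0.60 ± 0.20 and -0.38 ± 0.13, the last with an adjusted p of 0.0121 over all probes (limma). Their ratios lay above that of the lowest probe by 0.96 ± 0.15, 1.01 ± 0.32 and 1.24 ± 0.14 on the log2 scale, against 0.13 ± 0.12 for the other probe of NM_001164248. Averaged over its probes, Tpm1 was at -0.94. The fall of Tpm1 therefore differed between its probes by more than the spread between arrays. The sources used here do not give the exons in which the probes lie, so the difference cannot be assigned to a tropomyosin form.

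Tpm2, the beta tropomyosin of skeletal and smooth muscle, had signals of 2607, 2712 and 2307 in het RNA and 3247, 3077 and 3602 in null RNA. Its groups did not overlap, but the change was the smallest of the 9 that passed. The ratios of 0.32, 0.18 and 0.64 averaged 0.38 ± 0.24 (n = 3), or 1.30-fold higher (adjusted p = 0.0185, limma), and a second probe averaged 0.51 ± 0.22. Without replicate 3 the mean was 0.25, and after median centring 0.62. The call missed the threshold with the marked backgrounds kept (0.42, adjusted p = 0.0556, limma) and in the authors' processed values (0.40, adjusted p = 0.0548, limma). Tpm2 exceeded Tpm1 by 1.71, 1.57 and 2.30, a mean difference of 1.86 ± 0.39.

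The other tropomyosin genes, Tpm3 with slow muscle and non-muscle forms and the mainly non-muscle Tpm4, did not pass at their brightest probes. Tpm3 had ratios of 0.37, 0.23 and -0.24 (mean 0.12 ± 0.32, adjusted p = 0.437, limma), with null RNA saturated on 1 array, and Tpm4 averaged 0.10 ± 0.20 (adjusted p = 0.465, limma). A dimmer Tpm3 probe, for another transcript, was called lower (-0.41 ± 0.15, adjusted p = 0.00876 over all probes, limma).

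**Figure D3:**
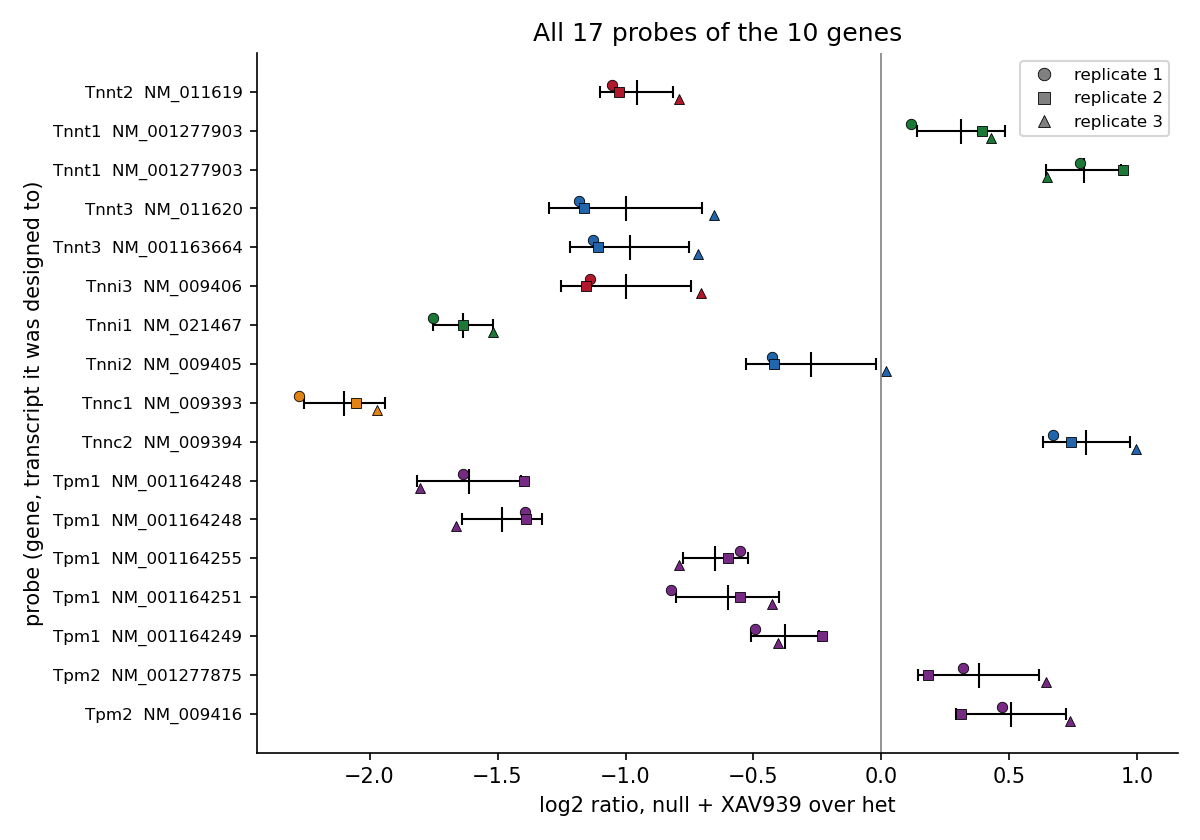
Log2 ratio of null plus XAV939 over het (horizontal axis) for all 17 probes of the 10 genes (vertical axis, with the RefSeq transcript of each probe). Points are the 3 replicates, the tick is their mean and the bars are 1 SD. The Tpm1 probes spread from -1.61 to -0.38, and the paired probes of Tnnt1, Tnnt3 and Tpm2 each lie on 1 side of 0.

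Over all 17 probes, 11 were called lower, 5 higher and 1, that of Tnni2, neither, against 31.4% lower and 28.7% higher among the 24376 probes tested. All 17 were well above background in both RNAs on all 3 arrays and none was saturated. Some spots were dim. Before background correction, the Tnni3 spot medians in null RNA were 175, 82.5 and 108 (replicates 1 to 3). Those of Tnnt3 in null RNA were 213, 148.5 and 103, and those of Tnnc2 in het RNA 111, 123 and 150. The matching local backgrounds on replicate 1 were 41, 40 and 35. The normalised signals were computed after an offset of 50 was added. How far dimness set the size of these ratios was not tested. The probes of 1 gene moved in 1 direction in each of the 4 genes with several probes, Tnnt1, Tnnt3, Tpm1 and Tpm2.

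Set in order by mean ratio, Tnnc1 came lowest and its replicates did not overlap those of Tnni1, the next gene. Tnni1 and Tpm1 overlapped each other and lay apart from the next group, Tnni3, Tnnt3 and Tnnt2, whose replicates overlapped. Tnni2 stood apart from its neighbours in this order. Tpm2 also did, but only narrowly on the upper side, where its highest ratio was 0.643 and the lowest of Tnnt1 was 0.648. The dimmer Tnnt1 probe (0.11, 0.39 and 0.43) overlapped Tpm2. At the upper end Tnnt1 and Tnnc2 overlapped. The middle of this order changed with the setting. With the scanner software's own log ratio Tnni3 (-1.71) lay below Tnni1 (-1.61) and Tpm1 (-1.47). Averaged over probes Tpm1 (-0.944) lay just above Tnni3 (-0.999), Tnnt3 (-0.992) and Tnnt2 (-0.957). The order did not follow the muscle types for which the genes are named. The cardiac genes Tnnt2 and Tnni3 both fell, with a difference of 0.04 between them here, 0.81 with the scanner software's log ratio and -0.44 with marked backgrounds kept. The slow skeletal genes split into Tnni1, which fell, and Tnnt1, which rose, and the fast skeletal genes covered a fall (Tnnt3), a rise (Tnnc2) and no call (Tnni2).

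For the 8 isoform pairs the exact sign-flip permutation test over 3 arrays cannot go below p = 0.25. It reached that value for 7 pairs (0.286 after Benjamini-Hochberg adjustment over the 8), so no pair could pass, and the sizes and SDs above carry the comparison. In these 7 pairs the difference had the same sign on 3 of 3 arrays, and in Tnnt3 minus Tnnt2 on 2.

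**Figure D4:**
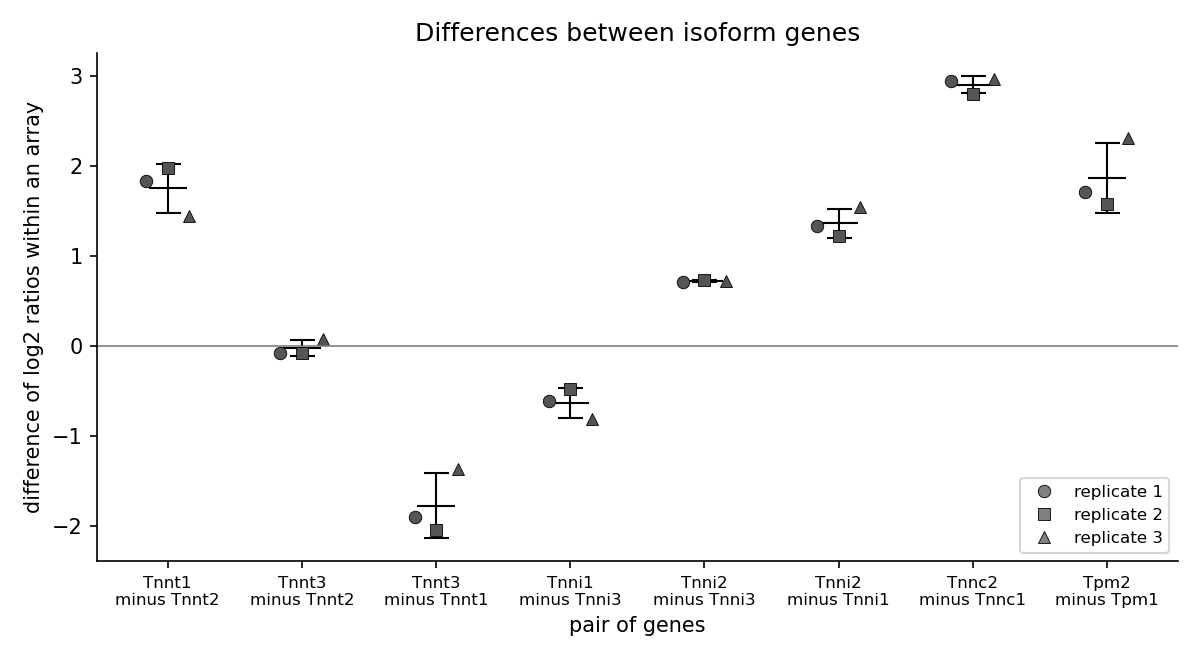
Difference between the log2 ratios of 2 genes on the same array (vertical axis) for the 8 isoform pairs (horizontal axis). Points are the 3 replicates, the wide bar is the mean and the error bars are 1 SD. Tnnc2 minus Tnnc1 is the largest at 2.90, and Tnnt3 minus Tnnt2 lies around 0.

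Troponin genes lie in pairs of a troponin T and a troponin I gene on the mouse genome, and the genes of 1 such pair moved in opposite directions. Tnnt1 and Tnni3 are direct neighbours on chromosome 7 in RefSeq's GRCm38.p6 annotation, and Tnnt1 exceeded Tnni3 by 1.91, 2.10 and 1.35, a mean difference of 1.79 ± 0.39 on the log2 scale, which was 1.16 with marked backgrounds kept. Tnnt2 and Tnni1 on chromosome 1 have 1 gene, Lad1, between them, and both fell, with Tnnt2 above Tnni1 by 0.68 ± 0.06. Tnnt3 and Tnni2 on chromosome 7 have 2 genes between them, and their difference was -0.71 ± 0.02. It was -0.35 with marked backgrounds kept and -1.19 with the scanner software's log ratio.

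A list of 25 other genes covered the thin filament and its assembly, together with myosin-binding proteins and myosin assembly factors. It is not confined to the sarcomere, since it also holds actin filament genes of smooth muscle and non-muscle cells, such as Actg2, Cnn1 and Tpm4. Of the 25 listed genes, 21 were tested, and 12 fell, 5 rose and 4 did not pass, with a median ratio of -0.52. The 6 genes that act on myosin (Mybpc1, Mybpc2, Mybpc3, Mybphl, Unc45b and Smyd1) gave 4 of the falls and 1 of the rises, and the 15 tested genes of the actin filament gave 8 falls, 4 rises and a median of -0.35. Against the 33.0% and 31.5% of all genes, the whole list had more falls than rises. Those that fell by at least 1 on the log2 scale were Lmod3, a leiomodin that nucleates actin (-2.41 ± 0.18), Mybpc3, the cardiac myosin-binding protein C (-2.04 ± 0.38), Nebl, which encodes nebulette of the cardiac Z-disc (-1.75 ± 0.17), Cald1, the actin-binding caldesmon (-1.56 ± 0.16), Tmod1, which caps actin filaments beside tropomyosin (-1.37 ± 0.14), and Fhod3, a formin of heart myofibrils (-1.30 ± 0.12). Those that rose by as much were Actg2, an actin of smooth muscle (2.49 ± 0.29), and Cnn1, the smooth muscle calponin (1.03 ± 0.25). The genes that did not pass were Acta1, skeletal actin (-0.13 ± 0.26), Smyd1 (-0.27 ± 0.21), Tpm3 and Tpm4. Lmod1, Lmod2, Neb and Nrap were well above background in neither RNA on any array and were not tested. Tmod2, called higher, was well above background in het RNA on only 2 arrays, and Mybphl, called lower, in null RNA on only 2. On the remaining array each entered the test through 1 RNA only. With both RNAs required to be well above background, the list had 11 falls and 4 rises.

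Markers of the cell types that these cultures could hold also differed. The counts below stand beside 33.0% of all genes called lower and 31.5% called higher. Of 8 cardiomyocyte markers 8 fell, with a median of -1.76, from Myh7 at -2.63 to Nkx2-5 at -0.98, and their summed signal was 88315 to 105161 in het and 17954 to 23058 in null RNA. In bulk RNA, fewer cardiomyocytes and less RNA per cardiomyocyte cannot be told apart, and this holds for Tnnc1, Tnnt2, Tnni1, Tnni3 and Tpm1 as well. Since Tpm1 also has smooth muscle and non-muscle forms, RNA of other cells cannot be told apart for it either. Of 10 skeletal muscle markers only Myh3, embryonic myosin, could be tested. Its ratio was 1.46 ± 0.27, with signals of 75.7 to 89.6 in het and 198 to 258 in null RNA. It was well above background in null RNA on 3 arrays and in het RNA on 2. On the remaining array Myh3 thus entered the test through null RNA only, and the size of its rise is uncertain. Myod1 and Myog were well above background in null RNA on 1 array and in het RNA on 0, Myf6 on 1 array in each RNA, and Myf5, Pax7, Ckm, Chrna1, Cacng1 and Myh1 on 0.

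Of 6 smooth muscle markers 5 were tested: Cnn1 and Tagln (0.59 ± 0.03) rose, Des (-1.22 ± 0.31) and Myocd (-1.83 ± 0.26) fell, Smtn was at -0.03 ± 0.23, and Myh11 was well above background on 0 arrays. Their median ratio was -0.03, and their summed signal, in which bright probes weigh most, was 38081 to 43779 in het and 56853 to 61389 in null RNA, so the sum and the median do not give the same picture. Acta2, a smooth muscle actin of the list above, was called lower (-0.52 ± 0.25, adjusted p = 0.00434, limma), with null RNA saturated on 1 array. Whether the RNA of Des and Myocd came from smooth muscle or from cardiomyocytes was not tested. Endoderm markers fell (5 of 5; summed signal 47325 to 54231 in het and 2836 to 6523 in null RNA) and those of pluripotent cells rose (4 of 4; 1886 to 2230 and 6314 to 8448). Of 4 fibroblast markers, which feeder cells would also carry, 3 fell and Thy1 rose (20647 to 29438 and 9422 to 12809). The part of each cell type in the troponin and tropomyosin ratios was not tested.

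**Figure D5:**
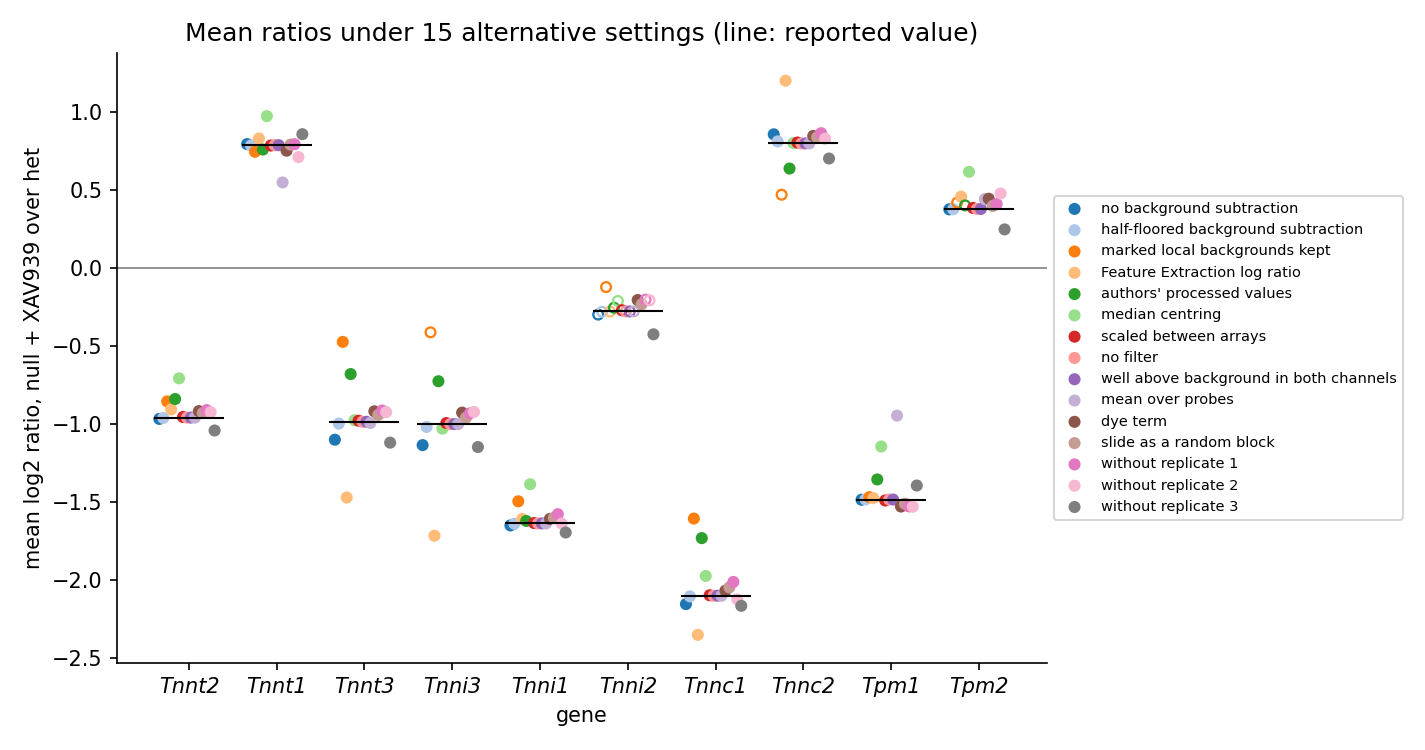
Mean log2 ratio of null plus XAV939 over het (vertical axis) for the 10 genes (horizontal axis) under 15 other processing settings (colours). The black line is the reported value, filled points passed an adjusted p of 0.05 in limma and open points did not. Each gene stays on 1 side of 0, and the points of Tnni3, from -1.71 to -0.41, spread most.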

How the data were processed

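Median spot and local background intensity in each channel were deposited by the authors as read by Agilent Feature Extraction (11.5.1.1 per the file headers, 8.5.1.1 in the submitters' processing notes). Per the file headers the deposited ratio column holds log10 values of Cy5 over Cy3, and the flags are 0 or 1. The authors' processed values are log2 ratios, and the sources used here do not give their normalization and centring (column medians 0.086, -0.08 and 0.053). They correlate with the scanner's Cy5 over Cy3 at 0.671, 0.772 and -0.775, the basis for turning replicate 3.

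Intensities were corrected by normexp (offset 50) and loess within each array in limma 3.58.1 (R 4.3.3). Local backgrounds marked as outliers took the median of the channel's unmarked backgrounds. Normalised channel signals were scaled between arrays by Aquantile. Spots were averaged per probe. Tested probes had to exceed background clearly, by the software's flag, in 1 or both RNAs of every array, and the brightest of them stood for the gene. Of 39429 probes, 28025 were named through RefSeq accessions (GRCm38.p6). The headers annotate the design, 026655, on mm9. Limma's moderated test set the mean ratio against 0, with Benjamini-Hochberg adjustment over 14705 genes, or 24376 probes. The median SD over arrays was 0.166 on the log2 scale. Between 56.6% and 68.0% of probes were well above background in a channel. Replicate 1 lay on slide 1 and replicates 2 and 3 on slide 2. The fitting steps were tested on simulated data.

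The members and lists were chosen with earlier results of these data known. Named are all 10 members with every probe, Hopx, Tpm3, Tpm4, genes of the thin filament list called with a log2 ratio of 1 or more in size or not called, and defining markers of each cell type. Acta2 of that list was named beside the smooth muscle markers, and Tmod2 and Mybphl for their detection. No gene was named for a like pattern over arrays, since the 3 arrays hold 1 comparison. The alternatives covered background, normalization, filter, probe choice, dye, slide, replicate 3 as labelled and each replicate left out.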

Additional observations from a re-analysis of the deposited data

How the results depend on the processing

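Under the 15 alternatives that keep replicate 3 turned, each of the 10 ratios kept its direction, and Tnnc1, Tnni1, Tpm1, Tnnt1, Tnnt2 and Tnnt3 also stayed past the threshold. With marked backgrounds kept, Tnni3 (-0.41), Tnnc2 (0.47) and Tpm2 (0.42) were lost, leaving 1 member higher, 3 genes of the thin filament list higher and 7 lower, 2664 of all genes higher and 2252 lower, and Tnnt3 minus Tnnt2 turned to 0.38; 1, 0 and 2 of the 17 member spots on replicates 1, 2 and 3 had such a background. The authors' values lost Tpm2 (0.40) and turned Tnnt3 minus Tnnt2 to 0.16, and the scanner software's log ratio turned Tnni1 minus Tnni3 to 0.11. Tnni2 passed with a dye term (-0.20), which takes up the departure of replicate 3, as turned the only array with null RNA in Cy3. It also passed with the slide as a random block (-0.23), whose correlation, estimated at -0.70 by a mixed model, is from 3 arrays. With 1 replicate left out, Tnni2 ranged from -0.42 to -0.20 and Tnnt3 minus Tnnt2 from -0.078 to 0.00010. With replicate 3 as labelled, Tnnt1 was at 0.36, Tnnt2 -0.43, Tnnt3 -0.51, Tnni1 -0.62, Tnni3 -0.53, Tnnc1 -0.79, Tnnc2 0.14, Tpm1 -0.37 and Tpm2 -0.048 (each adjusted p = 0.995, limma), and the counts over members, the thin filament list and all genes were 0. That loss follows from the turned sign of 1 array in 3; the cause of the other changes was not tested. Each array holds both RNAs, so the reported analysis is itself paired by replicate. Over these 15 alternatives the ratios of Tnni3 (-1.71 to -0.41) and Tnnt3 (-1.47 to -0.47) ranged most widely. Without replicate 1, which leaves the arrays of slide 2, no member's call changed.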
